A study of Mus musculus with 36 samples.

Results

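The genes described here are the nuclear genes of oxidative phosphorylation, that is, the chromosomal genes whose proteins build respiratory complexes I to IV and the mitochondrial ATP synthase. They were chosen by symbol alone (names starting with Nduf plus a to c, s or v and a number, Uqcr, Cox4 to Cox8, or Atp5, and the genes Sdha to Sdhd), which gave 85 of the 20325 genes in the files. Of these, 37 were complex I names, 4 complex II, 8 complex III, 19 complex IV and 17 ATP synthase. The names of 3 are not subunits of the complex they are counted under: Cox4nb is an older symbol of Emc8, a subunit of the endoplasmic reticulum membrane protein complex, Atp5s is Dmac2l and Atp5sl is Dmac2. Ndufa4 and its relative Ndufa4l2 carry a complex I name and are counted there, although the Ndufa4 protein is now placed in complex IV.

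Complex I takes electrons from NADH and complex II takes them from succinate. Both pass them through complex III and cytochrome c to complex IV, which reduces oxygen, and the proton gradient that complexes I, III and IV build drives the ATP synthase. Fibroblasts and pluripotent cells use this chain to different degrees, and pluripotent cells are known for strong glycolysis. Several subunits exist as paralogs with their own tissue pattern: Cox6a2, Cox7a1 and Cox8b are known from heart and skeletal muscle, Cox6b2 and Cox8c from testis, and Cox4i2 and Ndufa4l2 as genes that low oxygen induces.

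All fibroblasts were mouse embryonic fibroblasts (MEFs) from E13.5 embryos that were homozygous for a doxycycline-driven cassette at the Col1a1 locus (Oct4-2A-Klf4, an IRES, then Sox2-2A-c-Myc) and heterozygous for the reverse tetracycline transactivator at Rosa26, so the uninduced controls carry both alleles too. A timecourse held untreated MEFs, cells after 2 days of doxycycline with DMSO (the solvent control) or with SGC0946, an inhibitor of the histone H3 lysine 79 methyltransferase DOT1L, and cells after 4 days of doxycycline with DMSO, with SGC0946 throughout (full window), over days 0 to 2 only (early window) or over days 2 to 4 only (mid window). In a sorting experiment, cells after 3.5 days of doxycycline were separated by FACS on CDH1 (E-cadherin) into negative and positive fractions and grown on with DMSO or SGC0946 until day 5.5. In a virus experiment, MEFs received an empty or a Cdh1 lentivirus and were left uninduced or given doxycycline for 2 days with DMSO or SGC0946. V6.5 mouse embryonic stem cells (ESCs), which have no such cassette on their label, were taken 24 h after feeder removal. Each of the 18 groups had 2 libraries, which the labels number but do not tie to separate embryos or cultures, so every p-value below measures the spread between such libraries only. MEFs were kept in fibroblast medium, while reprogramming cells and ESCs were kept on irradiated feeder MEFs in ESC medium with leukemia inhibitory factor, so induction, medium and feeders cannot be told apart in a comparison with MEFs. For 1 Cdh1-virus MEF library (replicate 2), the source field names day 2 reprogramming cells while its title and treatment name uninduced MEFs, and it was kept with the MEFs.

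Library totals of expected counts (estimated reads per gene) ran from 32883668 to 50866706 in the timecourse, 34927901 to 43123011 in the sort, 18534377 to 35852109 in the virus libraries and 30694671 to 35161935 in ESCs, and the mid-window pair were the 2 shallowest of the timecourse. The 85 genes took up 0.77% to 1.27% of the counts. Summed fibroblast markers (Col1a1, Col1a2, Thy1, Pdgfra, Pdgfrb, Postn and Twist2) reached 19649 to 19762 CPM (counts scaled to a common library size after TMM normalization) in timecourse MEFs and 133 to 153 CPM in ESCs, and summed pluripotency markers (Nanog, Esrrb, Zfp42, Dppa5a, Sall4 and Tdgf1) were 0.481 to 0.588 CPM in timecourse MEFs and 2871 to 3098 CPM in ESCs. The CDH1-positive day 5.5 libraries stood at 12.9 to 20.4 CPM for the pluripotency list, and at 5477 to 5704 CPM for the fibroblast list. In bulk RNA a lower share of a cell type and less RNA per cell cannot be told apart.

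Promoters are shown for 5 genes because their genes carry the results below. The first 3 are the genes for subunit c of the ATP synthase, which encode the same mature peptide and moved in different directions at day 4. The others are Ndufb6 and Cox6b2, the pair called lower under SGC0946 at day 2 and, with the full window, at day 4. Each sequence runs 5′ to 3′ from 250 bases before to 50 bases after the RefSeq start (build GRCm38.p6, all 5 on the minus strand). The positions are chr11:96075582-96075881 for Atp5g1, chr15:102670998-102671297 for Atp5g2, chr2:73911277-73911576 for Atp5g3, chr4:40279372-40279671 for Ndufb6 and chr7:4753045-4753344 for Cox6b2. Capitals mark letters matching the motif of nuclear respiratory factor 1 (NRF1, which reads GCGC, any base, then TGCGC), an ETS family motif (CCGGAAG) or the YY1 motif (AAGATGGC), on either strand.
Atp5g1: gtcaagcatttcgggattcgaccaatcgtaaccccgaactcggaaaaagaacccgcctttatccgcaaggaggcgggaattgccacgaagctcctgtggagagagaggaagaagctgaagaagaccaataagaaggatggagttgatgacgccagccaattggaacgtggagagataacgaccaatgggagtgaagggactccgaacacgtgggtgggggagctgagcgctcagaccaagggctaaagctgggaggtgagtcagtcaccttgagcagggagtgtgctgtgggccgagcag
Atp5g2: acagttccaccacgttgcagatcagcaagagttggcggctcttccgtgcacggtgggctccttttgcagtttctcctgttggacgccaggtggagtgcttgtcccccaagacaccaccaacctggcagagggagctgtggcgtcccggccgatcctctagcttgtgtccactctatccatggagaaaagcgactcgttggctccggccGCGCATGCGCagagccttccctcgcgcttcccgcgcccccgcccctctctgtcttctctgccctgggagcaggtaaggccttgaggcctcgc
Atp5g3: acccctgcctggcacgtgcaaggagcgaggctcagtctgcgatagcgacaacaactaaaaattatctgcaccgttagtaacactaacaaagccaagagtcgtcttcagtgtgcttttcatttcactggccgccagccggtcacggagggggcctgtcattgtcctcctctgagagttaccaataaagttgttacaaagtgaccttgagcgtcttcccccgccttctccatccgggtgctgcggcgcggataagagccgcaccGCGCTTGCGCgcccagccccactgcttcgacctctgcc
Ndufb6: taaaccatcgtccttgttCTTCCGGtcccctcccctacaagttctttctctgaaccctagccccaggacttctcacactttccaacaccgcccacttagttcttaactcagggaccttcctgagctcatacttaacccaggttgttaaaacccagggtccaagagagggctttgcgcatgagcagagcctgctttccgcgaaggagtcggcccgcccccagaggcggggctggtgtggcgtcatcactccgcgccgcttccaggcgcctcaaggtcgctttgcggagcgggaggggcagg
Cox6b2: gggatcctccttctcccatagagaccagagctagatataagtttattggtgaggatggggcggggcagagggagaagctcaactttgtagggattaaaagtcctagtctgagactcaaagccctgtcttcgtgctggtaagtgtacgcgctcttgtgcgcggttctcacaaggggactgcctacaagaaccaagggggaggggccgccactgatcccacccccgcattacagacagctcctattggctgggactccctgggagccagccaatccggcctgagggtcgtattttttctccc

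Atp5g2 and Atp5g3 each hold the NRF1 letters, Atp5g1 and Cox6b2 hold none of the 3 motifs, and Ndufb6 holds the ETS letters on the opposite strand. Entries were found for 69 of the 85 genes, with 75 promoters in all. The NRF1 letters stood in 18 of these 75 (24%), against 4.60% of 32851 promoters of the same length. The ETS letters stood in 21.3% against 8.86%, the YY1 letters in 16% against 2.75%, CCAATNNG in 18.7% against 14.0%, and the core of the hypoxia response element (ACGTG) in 28% against 19.6%. All were searched on both strands, and none of the 5 contains another. These shares describe letters in the windows, and no protein binding was measured.

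Levels spanned several orders of magnitude between genes on the TPM scale (the transcript share of a library, corrected for length). In the timecourse, the mean over all groups was highest for Atp5b, the catalytic beta subunit of the ATP synthase, at 1470 TPM. Within the other complexes it was highest for Cox8a (complex IV) at 979 TPM, Uqcrh (the hinge protein of complex III) at 697 TPM, Ndufa4 (counted in complex I) at 549 TPM and Sdhd (a membrane anchor of complex II) at 237 TPM. The lowest in each set were Atp5s at 9.61 TPM, Ndufa4l2 at 1.62 TPM, the flavoprotein gene Sdha at 168 TPM and the Rieske protein gene Uqcrfs1 at 191 TPM. Some of the paralogs known from muscle and testis had hardly any reads. Cox8b had 1 read in 1 of 36 libraries, and Cox8c had 2 and 5 reads in the ESC libraries and 0 elsewhere. The filter on low counts left out Cox6a2, Cox7b2, Cox8b and Cox8c in the timecourse fit (81 of 85 tested), these 4 with Cox4i2 and Ndufa4l2 in the sort fit (79 tested), and Cox8b and Cox8c in the fit of virus libraries and ESCs (83 tested).

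The question of the control samples in the timecourse was how expression moves from MEFs over 2 and 4 days of factor induction. Between MEFs and day 2, 43 of 81 tested genes rose and 8 fell (edgeR quasi-likelihood test, Benjamini-Hochberg adjusted p under 0.05 over all 14473 genes tested), with a median log2 fold change of 0.11 against 0.06 over all genes. In the same comparison 40.4% of all genes were called higher and 34% lower, and 74.4% were called in either direction. The split was 34 higher and 14 lower without the filter on low counts. Without MEF replicate 2 it was 29 higher and 15 lower with a median of 0.05, the same as over all genes, and without MEF replicate 1 it was 52 higher and 4 lower. By complex, 18 of 37 complex I genes rose and 6 fell, 2 of 4 in complex II and 5 of 8 in complex III rose with none lower, 7 of 15 complex IV genes rose and 2 fell, and 11 of 17 ATP synthase genes rose with none lower.

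Ndufb6, an accessory subunit in the membrane arm of complex I, was at 57.7 and 51.4 CPM in MEFs and 97.6 and 103 CPM at day 2. The groups did not overlap, and the log2 fold change was 0.88 ± 0.06 (SE, n = 2 per group, edgeR adjusted p = 1.1e-11). Its exons overlap those of Smim27 on the opposite strand over 257 bases, and the library kit does not mark strand. Sdhd rose from 128 and 122 CPM to 166 and 171 CPM (0.43 ± 0.03, edgeR adjusted p = 1.6e-14). Sdhc, the other membrane anchor of complex II, rose by 0.11 on the log2 scale (edgeR adjusted p = 0.0085, with an adjusted p of 0.075 by DESeq2), and this call was also lost without a filter on low counts and without MEF replicate 2 or day 2 control replicate 2. Atp5s, the Dmac2l gene, went from 4.69 and 4.57 to 5.70 and 7.11 CPM (0.47 ± 0.12), a call lost without day 2 control replicate 2. The catalytic subunits of complex II gave −0.01 ± 0.03 for Sdha and 0.00 ± 0.04 for the iron-sulfur protein gene Sdhb, and neither was called. Among the decreases, Ndufa3 went from 46.1 and 41.4 to 32.4 and 34.0 CPM, Cox6a1 from 205 and 175 to 152 and 161 CPM, and Ndufa1 from 32.9 and 28.7 to 25.8 and 27.2 CPM. The Ndufa1 call was lost without MEF replicate 1 (edgeR adjusted p = 0.15). Over the same step, summed fibroblast markers went to 4930 to 5096 CPM, muscle markers (16 genes) from 105 to 107 CPM down to 4.82 to 5.10 CPM, and macrophage markers (Ptprc, Lyz2, Csf1r, Emr1, Cd68 and Mrc1) from 221 CPM to 43.7 to 46.0 CPM. Their part in these changes was not tested.

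Between day 2 and day 4 most of the chain moved down: 46 of 81 genes fell and 21 rose, with a median of −0.12 against −0.00 over all genes (39.7% of all genes called lower, 38.1% higher, 77.8% called). Subunits of 1 complex did not move together. In complex III, Uqcrq (a small ubiquinone-binding subunit) was at 95.4 and 90.9 CPM at day 2 and 49.96 and 49.7 CPM at day 4, a log2 change of −0.90 ± 0.07, while Uqcrh went from 155 and 151 to 199 and 189 CPM, a change of 0.35 ± 0.04. In complex II, Sdhc rose (0.32 ± 0.04) while Sdhd (−0.19 ± 0.03), Sdhb (−0.25 ± 0.04) and Sdha (−0.10 ± 0.03) fell, and the Sdha call was lost without day 2 control replicate 1 or day 4 control replicate 2.

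The 3 subunit c genes showed the same division within 1 protein. Atp5g1 went from 142 and 143 CPM at day 2 to 92.9 and 90.7 CPM at day 4 (log2 −0.63 ± 0.04, edgeR adjusted p = 2.7e-15). Atp5g3 went from 313 and 339 to 244 and 252 CPM (−0.40 ± 0.03). Atp5g2 rose from 209 and 225 to 298 and 295 CPM (0.45 ± 0.05, edgeR adjusted p = 7e-07). As a share of the TPM of the 3 genes, Atp5g2 made up 37.6% and 36.0% in MEFs, 33.9% and 34.2% at day 2, and 49.5% and 48.7% at day 4, so it passed Atp5g3 as the leading gene there. Atp5b itself fell from 1795 and 1808 to 1194 and 1192 CPM, and Cox5a, a matrix-side subunit of complex IV, from 149 and 153 to 98.9 and 98.8 CPM. Cox4nb, which is no respiratory subunit, fell by 0.66 on the log2 scale.

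The largest increases were in paralogs. Cox6b2, the testis paralog of a complex IV subunit on the intermembrane side, stood at 7.40 and 7.03 CPM in MEFs, 21.4 and 21.0 CPM at day 2 and 80.7 and 78.4 CPM at day 4. Both steps were called (log2 1.55 ± 0.08 and 1.91 ± 0.05, edgeR adjusted p = 1.6e-21 and 1e-29), and the libraries of the 3 times did not overlap. Its somatic counterpart Cox6b1 lay between 153 and 173 CPM at all 3 times (−0.09 ± 0.04 at the second step, edgeR adjusted p = 0.033, lost with DESeq2, RLE scaling, no filter or TPM, and without day 2 control replicate 1 or day 4 control replicate 2). By TPM Cox6b2 made up 3.98% ± 0.20 (SD, n = 2) of the pair in MEFs and 31.6% ± 0.06 (SD, n = 2) at day 4. Cox7a2l, which takes part in joining complexes III and IV into supercomplexes, rose from 130 and 134 to 204 and 204 CPM, while Cox7a2 fell from 98.3 and 98.4 to 84.8 and 85.8 CPM.

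**Figure D1:**
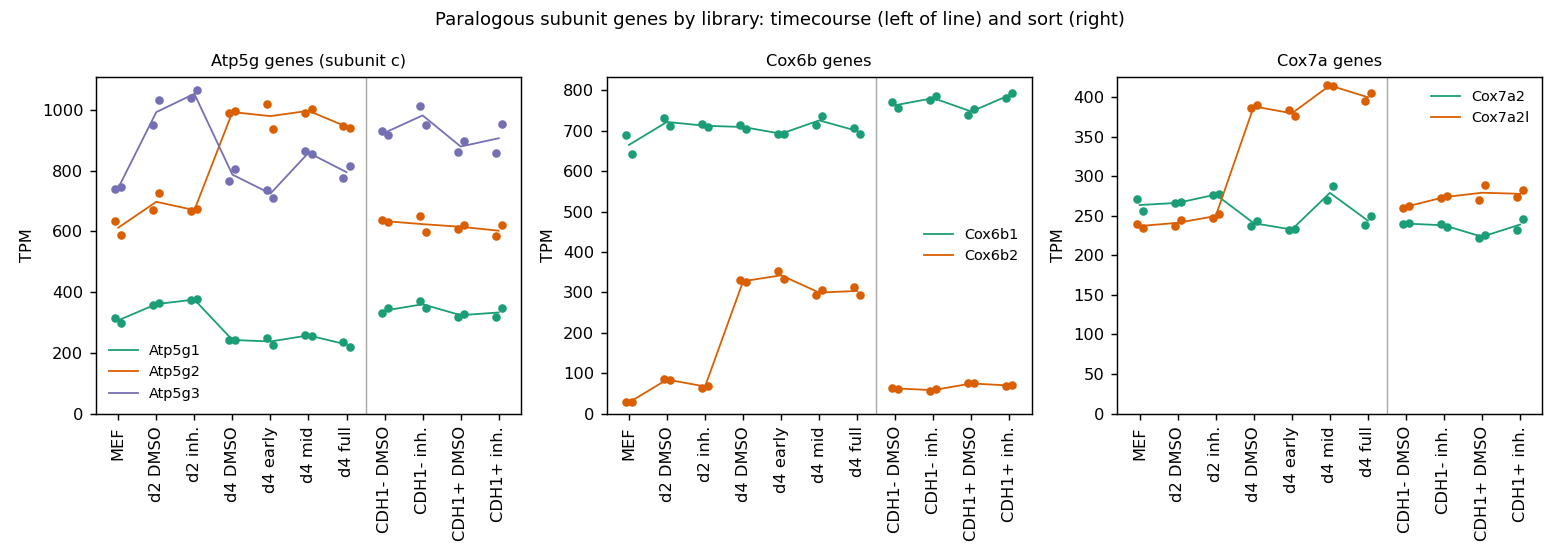
TPM of paralogous genes in each timecourse library (left of the grey line) and sort library (right), with points for libraries and lines through group means. Atp5g2, Cox6b2 and Cox7a2l are highest in the day 4 groups, and in all 4 sorted groups of day 5.5 they lie close to the day 2 values.

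Low-level paralogs also rose at day 4. Cox4i2 had 6 and 11 reads at day 2 (0.15 and 0.25 CPM) and 78 and 76 reads at day 4 (1.68 and 1.77 CPM), a log2 change of 3.06 ± 0.32 (edgeR adjusted p = 2.2e-11), after a fall from MEFs with 22 and 19 reads (−1.38 ± 0.41, edgeR adjusted p = 0.0027). Ndufa4l2 went from 13 and 10 to 32 and 30 reads (1.32 ± 0.38). It passed the filter on low counts only through the day 4 groups, where it is high. Cox7a1 went from 21 and 15 to 34 and 49 reads (1.10 ± 0.32, called with all 4 libraries and not without day 2 control replicate 2 or day 4 control replicate 2). Even at day 4, Cox4i2 held 0.51% ± 0.02 (SD, n = 2) of the TPM of the Cox4 pair. The summed level of low-oxygen response genes (Egln3, Bnip3, Vegfa, Car9, Pdk1, Ankrd37 and Ndrg1) was 179 to 184 CPM at day 2 and 294 to 296 CPM at day 4. By group means, Pdk1 (44.8 to 89.0 CPM) and Bnip3 (39.0 to 72.4 CPM) rose most. Vegfa changed little (64.3 to 72.3 CPM), and only Ankrd37 fell (2.35 to 1.76 CPM). Macrophage markers went from 43.7 to 46.0 CPM up to 157 to 160 CPM. The part of the low-oxygen list or the macrophage markers in these changes was not tested.

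Following genes over both steps, 25 rose and then fell, 11 rose at both steps, 19 did not pass the test at the first step and fell at the second, 7 rose only at the second step by the test, 7 rose and then did not pass, 3 fell and then rose, 3 fell and then did not pass, 2 fell in both, and 4 were called in neither. From MEFs to day 4 directly, 32 rose and 34 fell (82.2% of all genes called, 41.2% higher and 41% lower), with a median of −0.02. Scaled as TPM this split became 41 higher and 23 lower (limma on log2(TPM + 1)), so the balance of directions over the whole interval depends on the scaling. It was 36 and 26 without MEF replicate 1 and 29 and 39 without MEF replicate 2. Summed over all 85 genes, the level was 23528 and 22419 TPM in MEFs, 25934 and 26150 TPM at day 2, and 24915 and 24912 TPM at day 4.

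**Figure D2:**
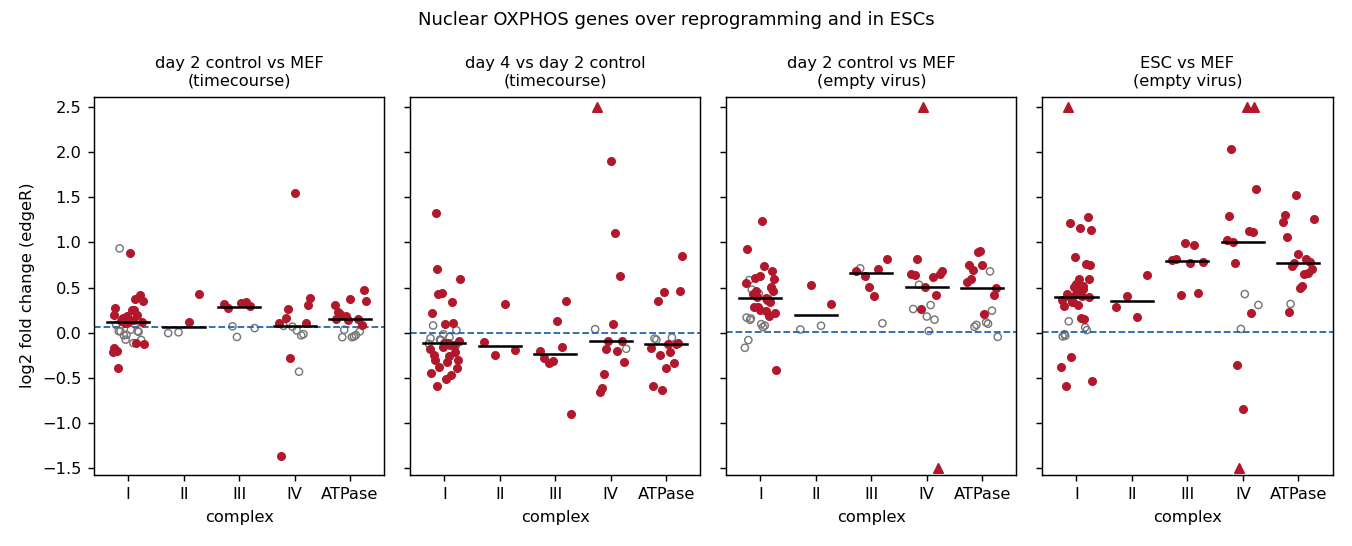
Log2 fold change of each tested gene by complex for 4 control comparisons, with red for called and open grey for not called, black bars for medians and a blue dashed line for the median of all genes. Triangles are genes beyond the axis and are red whether called or not. In ESCs the complex IV median is 1.01 and that of complex I is 0.39.

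The sorted day 5.5 cells had received doxycycline for longer than the day 4 cells, so their levels were set beside the timecourse on the TPM scale, as both sets were processed alike. Of the 67 genes called between day 2 and day 4, 41 had day 5.5 control means, in both fractions, nearer to day 2 than to day 4 (61.2%). Over all genes called in that step the share was 65.8% (7351 of the 11179 with TPM above 0 in all 4 means). Cox6b2 was at 63.0 and 61.7 TPM in CDH1-negative and 74.6 and 74.7 TPM in CDH1-positive controls, against 85.2 and 83.5 TPM at day 2 and 330.2 and 325 TPM at day 4. Uqcrq was at 434 and 439 TPM in the negative fraction, 411 and 394 TPM at day 2, and 224 and 227 TPM at day 4. The Atp5g2 share was 33.2% to 34.0%. The experiments also differ in the FACS sort, and time and experiment cannot be told apart here.

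**Figure D3:**
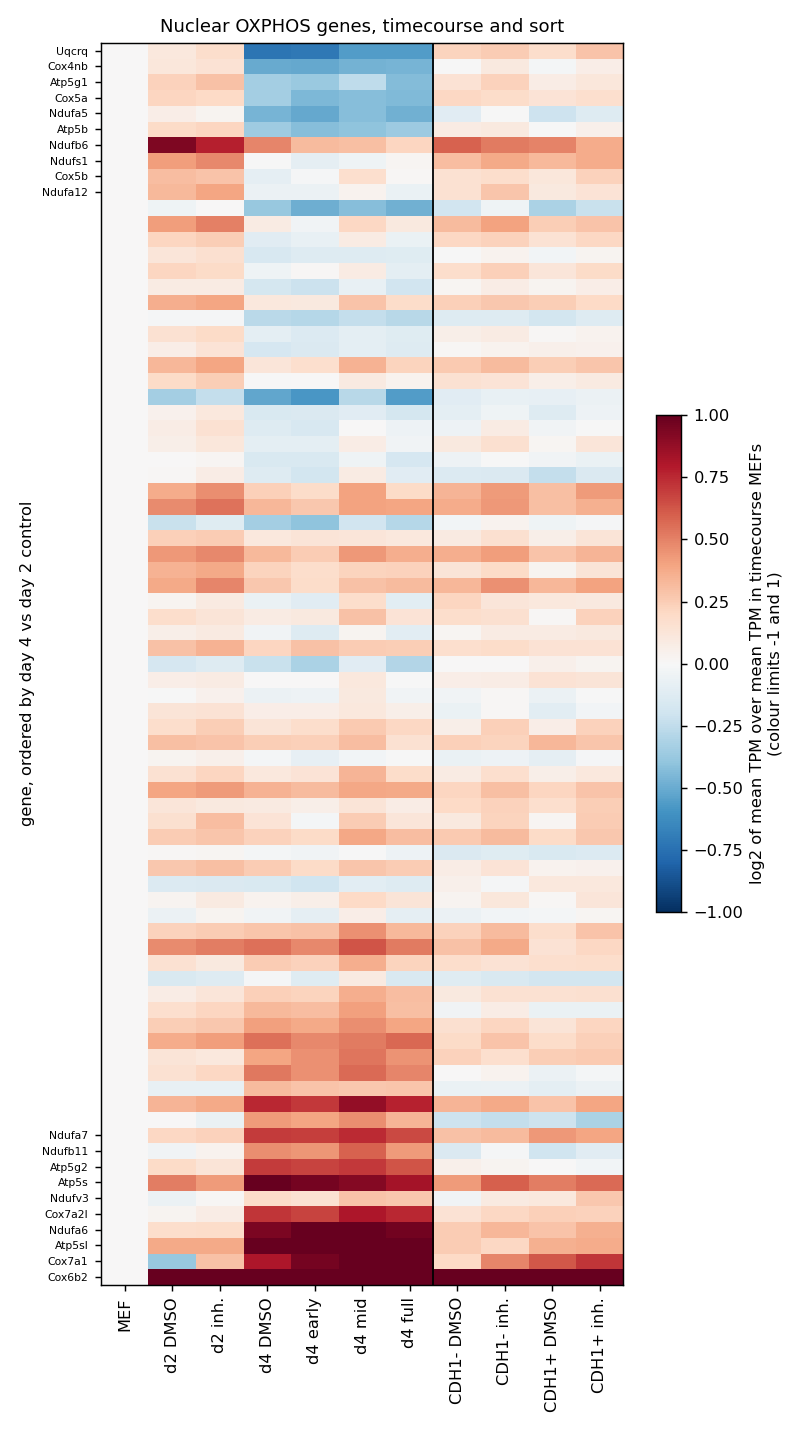
Log2 ratio of the mean TPM in each timecourse and sort group to that in timecourse MEFs, with genes ordered from largest decrease to largest increase between day 2 and day 4 (Cox4i2 and Ndufa4l2 left out, as they were not tested in the sort) and the 10 at each end named. The 4 day 4 columns resemble each other, and the 4 day 5.5 columns are closer to the day 2 columns for genes at both ends, such as Uqcrq and Cox6b2.

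Genes around the chain, from lists of related pathways, were counted in the same fits. Of 76 mitochondrial ribosome genes, which translate the mitochondrially encoded subunits, 51 rose and 3 fell at day 2 (median 0.22), and 3 rose and 63 fell from day 2 to day 4 (median −0.39). Assembly factors had 18 of 28 higher and 3 lower at day 2, then 2 higher and 18 lower at day 4. For the tricarboxylic acid cycle the counts were 18 higher and 3 lower of 22 at day 2, then 8 higher and 12 lower, and for glycolysis 12 higher and 3 lower of 18, then 3 higher and 14 lower. Of 20 tested regulators of mitochondrial genes, 15 rose and 1 fell at day 2, and 4 rose and 12 fell at day 4. Respiratory genes that the symbol rule does not take in (cytochrome c, coenzyme Q enzymes, carriers and others) had 13 higher and 3 lower of 23, then 7 higher and 12 lower.

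SGC0946 was compared with DMSO at the same time points to ask what loss of DOT1L activity does to these genes. At day 2 the inhibitor left 79 of the 81 genes uncalled, none rose and 2 fell (2.47% called, against 17.8% of all genes, 8.73% higher and 9.11% lower). With TPM scaling 1 was higher and 1 lower. The day 4 comparisons share 1 pair of DMSO libraries. There, the full window gave 3 increases and 6 decreases (11.1% against 34.8% of all genes, 19% higher and 15.8% lower), and the early window gave none (5.63% of all genes). With the early window, 8 genes had an unadjusted edgeR p under 0.05, and DESeq2 also called none, while 3 were called without a filter on low counts, 2 with TPM scaling, and 1 with the replicate block or without early-window replicate 1. The medians were −0.00 at day 2, −0.02 in the full window and −0.01 in the early window. For the full window the TPM-scaled fit called 5 higher and 3 lower, and 4 were called in total without day 4 control replicate 1. Summed epithelial markers were 16.9 to 17.6 CPM with DMSO, 25.4 to 26.1 CPM in the early, 44.7 to 46.5 CPM in the mid and 70.9 to 73.3 CPM in the full window, and their part was not tested.

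Cox6b2 and Ndufb6 were the genes called lower at day 2 and, with the full window, at day 4. At day 2, Cox6b2 was at 16.0 and 16.9 CPM with SGC0946 against 21.4 and 21.0 CPM with DMSO (log2 −0.36 ± 0.06, edgeR adjusted p = 3.2e-05). At day 4 the full window gave 75.8 and 69.4 CPM against 80.7 and 78.4 CPM (−0.13 ± 0.05, edgeR adjusted p = 0.019), a call lost without day 4 control replicate 1 or full-window replicate 2. Even with the inhibitor, Cox6b2 was far above its MEF level. The early-window mean of Cox6b2 was the highest of all timecourse groups, above that with DMSO, and was not called. Ndufb6 was at 85.8 and 90.4 CPM against 97.6 and 103 CPM at day 2 (−0.19 ± 0.06, edgeR adjusted p = 0.021, lost without day 2 control replicate 2, 0.16, or inhibitor replicate 1, 0.14). At day 4, Ndufb6 was at 54.5 and 60.4 CPM in the full window against 70.5 and 70.4 CPM (−0.29 ± 0.06, edgeR adjusted p = 5e-04). Its early-window libraries had 67.3 and 59.5 CPM and its mid-window libraries 62.9 and 62.5 CPM, all below both DMSO libraries, with edgeR adjusted p = 0.15 and 0.041. The other decreases of the full window were Ndufa2, at 71.6 and 66.9 CPM against 79.7 and 76.1 CPM, Cox5a, at 91.2 and 90.2 CPM against 98.9 and 98.8 CPM, Ndufb8 (−0.12 ± 0.04) and Atp5g1 (−0.11 ± 0.04). The Ndufa2 call was lost without day 4 control replicate 1 or full-window replicate 2, and the Atp5g1 call with DESeq2, with TPM, and without either day 4 control replicate or full-window replicate 2.

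The increases of the full window were the 3 low-level paralogs. Cox4i2 was at 4.44 and 3.63 CPM (185 and 175 reads) against 1.68 and 1.77 CPM, a log2 change of 1.22 ± 0.19 (edgeR adjusted p = 1.2e-06). Ndufa4l2 was at 1.65 and 1.54 CPM (69 and 74 reads) against 0.69 and 0.70 CPM (1.19 ± 0.27, edgeR adjusted p = 5.7e-04). Its exons overlap Shmt2 on the opposite strand over 32 bases, and Shmt2 was at 100.5 and 99.2 CPM against 113 and 110.0 CPM. Cox7a1 was at 1.68 and 1.56 CPM against 0.73 and 1.14 CPM (0.79 ± 0.26, edgeR adjusted p = 0.014, lost without day 4 control replicate 1, 0.26, or full-window replicate 1, 0.083). The summed low-oxygen list was at 317 to 324 CPM with the full window and 294 to 296 CPM with DMSO, and its part in these increases was not tested. Whether the inhibitor acted differently at day 4 and day 2 was tested as an interaction, and no gene was called (9.18% of all genes). There 6 genes had an unadjusted p under 0.05 and DESeq2 called none, while 4 were called without a filter on low counts, 3 with limma on log2(TPM + 1), and 1 and 2 without full-window replicate 1 and 2. The closest to the threshold was Ndufa4l2, with a difference of 1.66 ± 0.55 (edgeR adjusted p = 0.052).

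**Figure D4:**
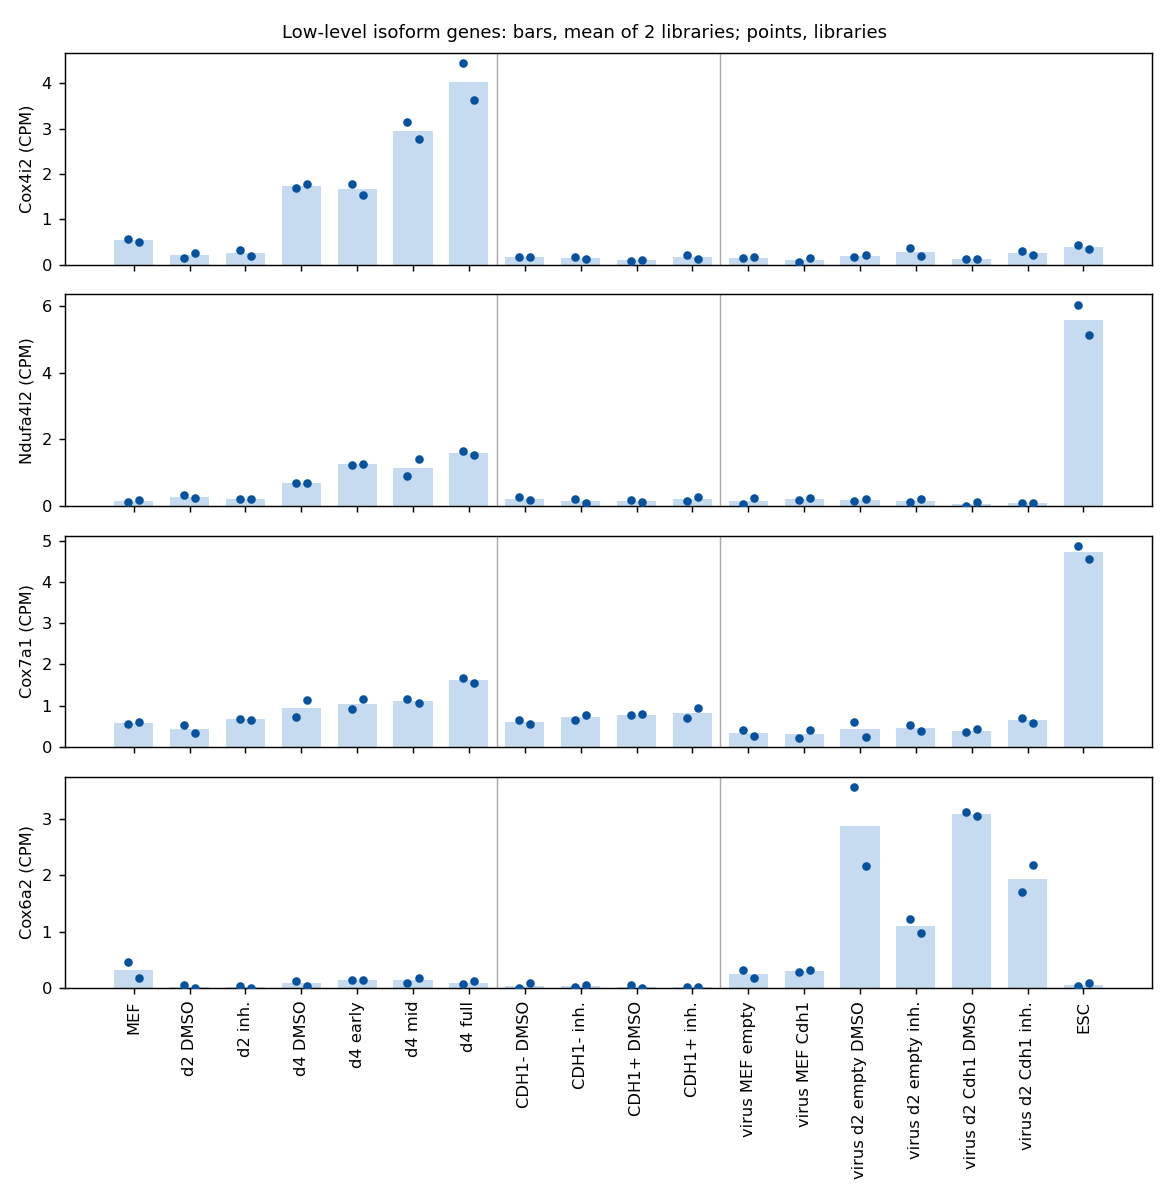
CPM of 4 low-level paralogs in all 18 groups, with bars for group means and points for the 2 libraries, and grey lines between the timecourse, the sort and the virus and ESC libraries. Cox4i2 is highest with the full inhibitor window at day 4, Ndufa4l2 and Cox7a1 in ESCs, and Cox6a2 in virus-treated day 2 cells.

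The mid window differed from the other windows. With SGC0946 over days 2 to 4 only, 28 of 81 genes were higher than in the DMSO control and 1 (Ndufb6) was lower, and 71 of 81 estimates were above 0 (27.4% of all genes called, 14% called higher). The median was 0.11 against 0.01 over all genes, so the step was small. Higher calls came from all complexes: 10 of 37 in complex I, 1 of 4 in II, 2 of 8 in III, 8 of 15 in IV and 7 of 17 in the ATP synthase. Cox5b, a zinc-binding subunit of complex IV, was at 140 and 142 CPM against 121 and 113 CPM (log2 0.27 ± 0.04, edgeR adjusted p = 1.1e-05). Cox7b was at 136 and 142 CPM against 117 and 114 CPM (0.26 ± 0.04, edgeR adjusted p = 2.9e-07). Ndufb2 was at 27.9 and 29.5 CPM against 23.4 and 25.0 CPM (0.25 ± 0.06, a call lost without day 4 control replicate 1 or mid-window replicate 2). Cox4i2 was at 3.14 and 2.77 CPM (0.77 ± 0.20 over DMSO, edgeR adjusted p = 0.0027). The Ndufb6 call was lost without any 1 of the 4 libraries.

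Compared directly with the full window, the mid window had 30 genes higher and none lower (8.51% of all genes higher, 11.6% lower, 20.1% called), with a median of 0.12. Compared with the early window it had 31 higher and 1 (Cox6b2) lower (10.3% and 11%, 21.2% called), with a median of 0.10. These comparisons were added after the data were seen and share the same 2 mid-window libraries, and leaving out a library was not run for them. Without day 4 control replicate 2, or without mid-window replicate 2, the count against DMSO was 10 higher and none lower. That is 12.2% of the 82 genes tested there, below the 18.4% and 18.0% of all genes called in those fits, with medians of 0.08 in both. The mitochondrial ribosome list had 10 higher and 2 lower of 76 in the mid window, and glycolysis 4 higher and 7 lower of 18, while the full window had glycolysis at 12 higher and 2 lower.

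**Figure D5:**
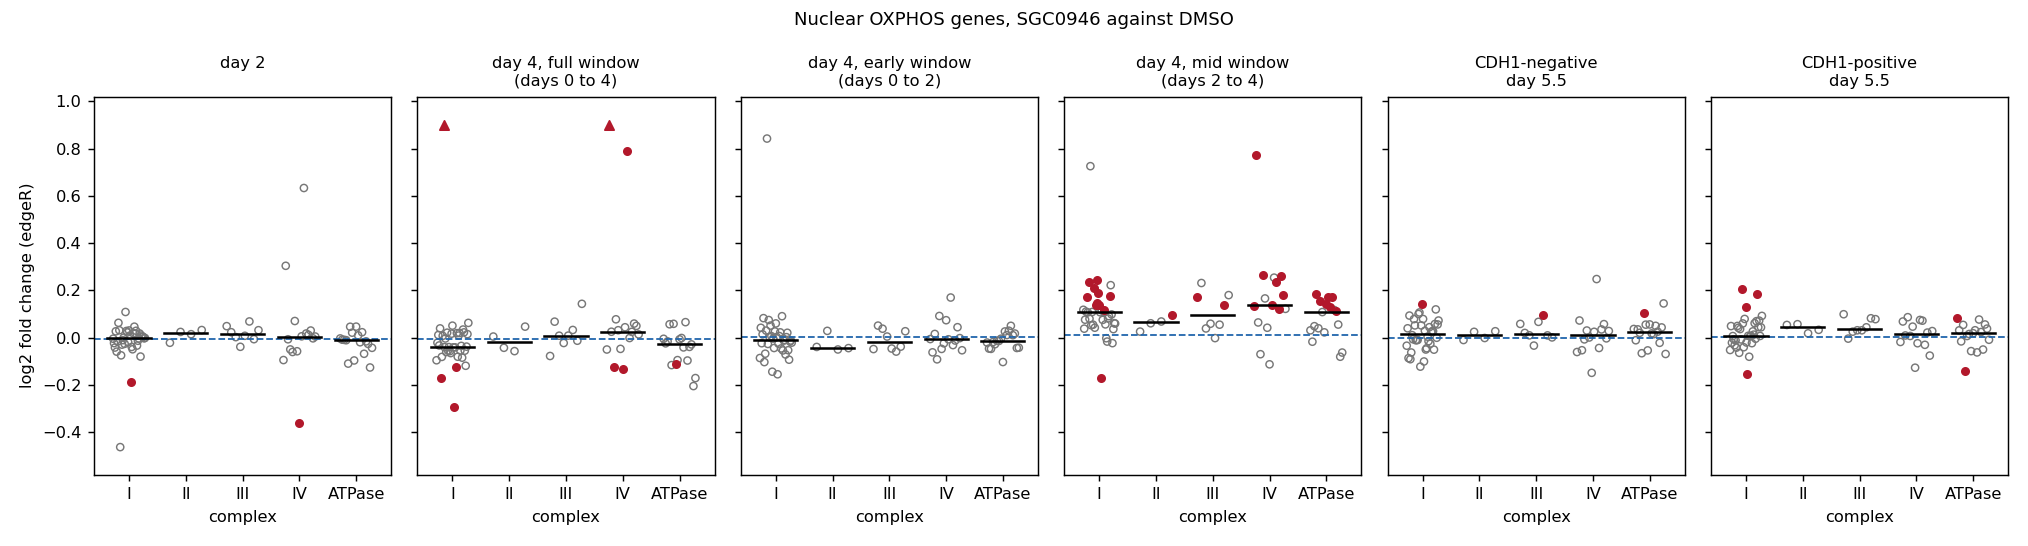
Log2 fold change with SGC0946 over DMSO for each tested gene by complex, in the timecourse (4 panels) and in the sorted fractions (2 panels), with red for called, open grey for not called, black bars for medians, a blue dashed line for the median of all genes and triangles for genes beyond the axis. Medians lie near the all-gene line except in the mid window, where that of all members is 0.11.

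In the sorted cells all 79 tested genes kept their group means within 1.5-fold of each other. CDH1-positive controls had 24 genes lower and 2 higher than CDH1-negative controls (13.8% of all genes lower, 12.8% higher, 26.6% called), with a median of −0.07 against 0.00. The decreases were 7 of 17 in the ATP synthase, 9 of 36 in complex I, 2 of 4 in complex II, 3 of 8 in complex III and 3 of 14 in complex IV. Ndufs6, Ndufs7 and Ndufs8 belong to the peripheral arm of complex I, where the last 2 bind iron-sulfur clusters. Ndufs6 was at 26.7 and 25.3 CPM in the positive and 29.6 and 30.4 CPM in the negative fraction (log2 −0.21 ± 0.06, edgeR adjusted p = 0.0027). Ndufs8 was at 35.1 and 36.1 CPM against 38.2 and 42.0 CPM (−0.17 ± 0.05), and Ndufs7 at 46.2 and 45.3 CPM against 49.5 and 55.1 CPM (−0.19 ± 0.05). The Ndufs6 call was lost without positive replicate 2, that of Ndufs7 without replicate 2 of either fraction, and that of Ndufs8 without negative replicate 2 or positive replicate 1. Ndufb2 (−0.15 ± 0.06) and Ndufv3 (0.14 ± 0.05) were called with all 4 libraries and not without any 1 of them. Cox6b2 was higher, at 17.3 and 17.6 CPM against 15.1 and 15.0 CPM (0.21 ± 0.07, edgeR adjusted p = 0.019), and this call was lost with DESeq2 and without any 1 of the 4 libraries. The succinate dehydrogenase genes Sdhc and Sdhd were lower by 0.10 and 0.11, and Sdha (−0.06) and Sdhb (−0.07) were not called.

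The count of this comparison was unstable: 6 genes without CDH1-positive control replicate 1, 11 without replicate 2 of that group and 12 without CDH1-negative control replicate 2. The TPM-scaled fit called 3 higher and 5 lower and DESeq2 called none higher and 8 lower. The summed macrophage markers moved with the fraction, at 10.2 to 10.4 CPM in negative and 72.6 to 72.9 CPM in positive controls, as did epithelial markers, at 47.2 to 49.2 and 141 to 143 CPM, and their part in the result was not tested. Of the 76 mitochondrial ribosome genes, 28 were lower and none higher in the positive fraction.

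SGC0946 from day 3.5 to day 5.5 changed 3 genes in the negative fraction, all upward (3.80% against 18.7% of all genes, 7.82% higher). Atp5f1, of the peripheral stalk of the ATP synthase, was at 224 and 222 CPM against 204 and 211 CPM (log2 0.10 ± 0.03, edgeR adjusted p = 0.006), and Ndufb4 (0.14 ± 0.05) and Uqcrfs1 (0.10 ± 0.03) were called too. Without control replicate 1 the calls of Atp5f1 and Uqcrfs1 were lost, and without control replicate 2 or inhibitor replicate 1 those of Ndufb4 and Uqcrfs1. In the positive fraction 4 rose and 2 fell (7.59% against 18.8% of all genes, 8.33% higher and 10.5% lower), while TPM scaling gave 7 higher and none lower. Ndufb10 was at 60.9 and 60.4 CPM against 49.8 and 55.3 CPM (0.21 ± 0.04, edgeR adjusted p = 7.2e-05), and Ndufs6 at 28.9 and 30.1 CPM against 26.7 and 25.3 CPM (0.19 ± 0.06). Ndufb6 was at 58.1 and 64.0 CPM against 67.1 and 69.1 CPM (−0.16 ± 0.05, edgeR adjusted p = 0.014) and Atp5e, the epsilon subunit gene, fell by 0.14. Ndufb4 (0.13 ± 0.05) and Atp5a1 (0.08 ± 0.02) were the other increases. Without control replicate 1 the calls of Atp5a1, Atp5e, Ndufb10 and Ndufb4 were lost, without control replicate 2 those of Atp5e, Ndufb4, Ndufb6 and Ndufs6, without inhibitor replicate 1 those of Atp5a1, Atp5e, Ndufb4 and Ndufb6, and without inhibitor replicate 2 those of Ndufb4 and Ndufs6. With SGC0946 summed epithelial markers were 82.9 to 83.9 CPM in the negative and 194 to 195 CPM in the positive fraction, and macrophage markers 8.17 to 8.66 and 54.2 to 54.8 CPM, and their part in these changes was not tested. Without CDH1-positive control replicate 1 or 2, 2 genes were called in the positive fraction. No gene differed between the fractions in its response (interaction, 0.186% of all genes, 4 at an unadjusted edgeR p under 0.05, none with DESeq2).

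In the virus experiment, uninduced MEFs with empty virus were compared with the same virus after 2 days of doxycycline. Here 52 of 83 genes rose and 1 (Ndufv3) fell (33.4% of all genes higher, 32.7% lower, 66% called), with a median of 0.43 against 0.00. TPM scaling gave 36 higher and 5 lower and moved the median of all genes to −0.14, from which the median of the chain (0.20) stood 0.34 apart. Called increases were 24 of 37 in complex I, 2 of 4 in II, 6 of 8 in III, 10 of 17 in IV and 10 of 17 in the ATP synthase. Ndufb6 had the second largest increase after Cox6a2, at 54.3 and 48.2 CPM in MEFs and 130.5 and 111 CPM at day 2 (log2 1.23 ± 0.09, edgeR adjusted p = 1.4e-09). Ndufa12 went from 50.1 and 50.2 to 97.0 and 93.5 CPM. All 3 subunit c genes rose: Atp5g1 from 82.3 and 77.2 to 155 and 142 CPM, Atp5g2 from 105 and 98.8 to 188 and 194 CPM, and Atp5g3 from 184 and 155 to 285 and 285 CPM.

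Cox6b2, which rose about 3-fold in the timecourse (a ratio of 2.94), was already at 37.9 and 32.1 CPM in the empty-virus MEFs and at 44.2 and 35.1 CPM at day 2, and was not called (0.18 ± 0.13). Cox6a2 had 7 and 4 reads in empty-virus MEFs (0.32 and 0.18 CPM) and 89 and 60 reads at day 2 (3.56 and 2.16 CPM), a log2 change of 3.50 ± 0.37. It passed the filter on low counts in this fit only through the day 2 virus libraries, where it is high. The change is therefore given without a p-value. In the timecourse this gene had 18 and 7 reads in MEFs and 2 and 0 at day 2. Its exons overlap Itgad on the opposite strand over 70 bases, and Itgad was at 0 in all virus libraries. Of the genes called in the day 2 comparison of either experiment, 34 were higher in both, 1 was lower in both, and Cox6a1 was among those that went opposite ways. The 35 alike are 68.6% of the timecourse's 51 and 67.3% of the 52 called in the virus arm among genes tested in both. Over all genes tested in both, those called alike were 58.4% and 63.9% of the calls.

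Summed macrophage markers were 1249 to 1359 CPM in empty-virus MEFs and 223 to 235 CPM at day 2 with empty virus, against 221 and 43.7 to 46.0 CPM at these points of the timecourse, and their part in the differences between the experiments was not tested. Among the surrounding lists, 69 of 76 mitochondrial ribosome genes rose and none fell in the empty-virus arm. For assembly factors 21 rose and 2 fell of 28, for the tricarboxylic acid cycle 17 and 2 of 22, and for glycolysis 13 and 2 of 18. Regulators of mitochondrial genes had 11 higher and 4 lower of 21, and respiratory genes outside the symbol rule 15 and 2 of 23.

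The Cdh1 virus was compared with empty virus to ask what the added E-cadherin does. In uninduced MEFs no gene was called (1.14% of all genes, 7 at an unadjusted edgeR p under 0.05, none with DESeq2), and at day 2 Uqcrq was the 1 gene called, higher (0.897% of all genes, 0.146% higher). Uqcrq was at 126 and 133 CPM with Cdh1 virus and 114 and 102 CPM with empty virus (log2 0.26 ± 0.06, edgeR adjusted p = 0.048, lost without empty-virus replicate 2, 0.50, and without either Cdh1-virus replicate). SGC0946 at day 2 lowered 3 genes with empty virus (3.61% against 6.73% of all genes, 3.22% higher and 3.52% lower). Among them were Cox6a2, at 1.23 and 0.98 CPM against 3.56 and 2.16 CPM (−1.38 ± 0.27, edgeR adjusted p = 0.0025, lost without DMSO replicate 1, 0.095) and Ndufs7 (−0.35 ± 0.08), which was called with all 4 libraries and not without any 1 of them. With Cdh1 virus, Sdhb rose (0.24 ± 0.07) and Ndufb3 fell (−0.31 ± 0.08), against 5.05% of all genes called (2.82% higher, 2.23% lower). Neither was called without DMSO replicate 1 or without DMSO replicate 2, Ndufb3 also not without inhibitor replicate 2 and Sdhb not without inhibitor replicate 1. Cox6b2 and Ndufb6, lower with SGC0946 at day 2 of the timecourse, were not called in either virus arm, and Ndufb6 stood at 103 and 108 CPM against 130.5 and 111 CPM with empty virus. Small changes are called less readily in this fit. In simulated data edgeR recovered 26% of 1.2-fold changes here, against 68% in the timecourse fit.

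ESCs were compared with empty-virus MEFs, the uninduced fibroblasts sequenced in the same way, from which they also differ in virus, genotype and medium. In ESCs 66 of 83 genes were higher and 7 lower (44.5% of all genes higher, 44.1% lower, 88.7% called), with a median of 0.52 against 0.00. With TPM the split was 34 higher and 18 lower, and the median of the chain was 0.10 against −0.29 over all genes, 0.39 apart. The median stayed above that of all genes under both scalings, while the direction of single genes did not hold. Among the named genes, Cox6b1, Cox7a2l, Sdha, Sdhb and Sdhc had estimates above 0 by count scaling and below 0 by TPM. That of Sdhb by TPM was close to no change. By counts 10 of 83 estimates were below 0, fewer than the 18 called lower by TPM, so members that are not named changed sign too. By complex the medians were 1.01 in complex IV (11 of 17 higher, 3 lower), 0.80 in complex III (8 of 8 higher), 0.77 in the ATP synthase (16 of 17 higher), 0.39 in complex I (27 of 37 higher, 4 lower) and 0.35 in complex II (4 of 4 higher). For complexes I and II the direction depended on the scaling: summed TPM was 6981 and 6966 in ESCs against 7207 and 6951 in the MEFs for complex I, where the libraries overlap, and 786.5 and 786.4 against 802 and 799.8 for complex II.

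Cox7c, a small complex IV subunit, was at 247 and 285 CPM in ESCs and 90.3 and 85.8 CPM in the MEFs (log2 1.59 ± 0.10, edgeR adjusted p = 9.6e-11). Atp5g2 was at 298 and 290 CPM against 105 and 98.8 CPM (1.53 ± 0.10), and its share of subunit c TPM was 41.0% and 43.7% against 30.5% and 32.2%. Cox4i1 was at 346 and 396 CPM against 172 and 192 CPM (1.02 ± 0.11). Cox4nb, the Emc8 gene, was at 150 and 160 CPM against 37.8 and 37.7 CPM (2.04 ± 0.07).

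The largest folds were again in low-level paralogs. Ndufa4l2 had 180 and 174 reads in ESCs (6.05 and 5.14 CPM) and 1 and 5 reads in empty-virus MEFs (log2 5.33 ± 0.38). Cox7a1 had 145 and 154 reads against 9 and 6 (3.79 ± 0.30). Cox7b2 had 14 and 16 reads against 1 and 0, a fitted change of 4.14 ± 0.96 whose size depends on the prior count. Ndufa4l2 and Cox7b2 passed the filter on low counts only through the ESC libraries, where they are high. In the virus libraries they had 0 to 6 and 0 to 2 reads. Their folds are therefore given without a p-value. The low-oxygen list was at 513 to 527 CPM in ESCs and 174 to 179 CPM in the MEFs. Its members did not move together. Mean Pdk1 was at 293 CPM in ESCs against 25.1 CPM in the MEFs, and Bnip3, Egln3 and Ankrd37 were also higher. Vegfa (41.1 against 62.8 CPM) and Ndrg1 (10.2 against 45.6 CPM) were lower, and Car9 was similar (1.25 against 1.28 CPM). The part of this list was not tested. Among the decreases, Cox6b2 was at 20.9 and 17.9 CPM against 37.9 and 32.1 CPM (−0.85 ± 0.14), Ndufa3 at 30.8 and 29.4 CPM against 46.8 and 44.3 CPM (−0.60 ± 0.09), Ndufv3 at 43.7 and 43.3 CPM against 61.6 and 64.5 CPM (−0.54 ± 0.07) and Cox6a2 had 1 and 3 reads against 7 and 4, a call lost without empty-virus MEF replicate 1 or ESC replicate 1. Summed macrophage markers were 21.2 to 23.5 CPM in ESCs against 1249 to 1359 CPM, and their part was not tested. Around the chain, 70 of 76 mitochondrial ribosome genes were higher and 1 lower (median 0.95). Of 18 glycolysis genes, 17 were higher and 1 lower (median 1.68), and of 21 regulators 16 were higher and 4 lower (median 0.90). These medians lay above that of the chain itself. Below it were assembly factors (18 of 28 higher, 7 lower, median 0.38) and the tricarboxylic acid cycle (14 of 22 higher, 6 lower, median 0.30). Respiratory genes outside the symbol rule were also below it (15 of 23 higher, 5 lower, median 0.44).

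Antisense and overlapping genes limit some single values. In the GENCODE M21 annotation, exons of 19 of the 85 genes overlap those of another protein-coding gene, 15 of them on the opposite strand, and reads without strand cannot be told apart there. They include Ndufb6, Ndufa4l2, Cox6a2, Atp5a1 (129 bases, with Haus1), Cox4nb (323 bases on the same strand, with Gm27021), Ndufb8 (134 bases on the same strand, with Gm20538), Ndufa3 (4 bases, with Tfpt), Ndufa2 (66 bases, with Tmco6), Ndufb2 (146 bases, with Braf) and Ndufs6 (30 bases, with Mrpl36).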

How the data were processed

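Poly(A) RNA from 36 libraries (TruSeq v2, from 1 µg RNA, with 20 ng of human 293T RNA added in the timecourse and sort) was sequenced by the submitters. The authors' deposited gene tables hold RSEM expected counts and TPM. Per the submitters' processing notes, RSEM 1.2.4, Bowtie and Trimmomatic were used. The genome build is not given in the sources used here. In the timecourse and sort tables the effective length is 59.9 to 88.8 bases shorter than the gene length, and in the virus and ESC tables it equals it, so TPM was not set across these kinds.

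Expected counts were rounded and tested with edgeR 4.0.16 (R 4.3.3; TMM scaling, minimum count 10, minimum total 15, robust quasi-likelihood fit), in 3 separate fits: 14 timecourse, 8 sort, and 14 virus and ESC libraries, with no covariate. A 2-day effect was also compared between experiments in a joint fit. Each of 21 comparisons was adjusted by Benjamini-Hochberg over all genes tested, with a threshold of 0.05. SE is the absolute log2 fold change over the square root of F. Alternatives were DESeq2 1.42.0, RLE scaling, no filter, limma 3.58.1 on log2(TPM + 1) or + 0.1, a replicate block and leaving out each library. The code was tested on simulated data. Summed CPM over markers used TMM-scaled libraries.

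The members, pathway lists and comparisons were chosen with earlier results of these data known. Named genes are, per comparison, up to 4 largest increases and decreases among called members (some are given only in the counts), the paralog families, the Sdh genes, and the highest and lowest member per complex. Others given as examples were chosen after their values were seen. All 85 symbols matched 1 current symbol. Promoters are from RefSeq. Results for 1 gene are not reported here by name.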

Additional observations from a re-analysis of the deposited data

Results flagged for a closer look

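The change from uninduced MEFs to day 2 was tested for a difference between the empty-virus arm and the timecourse in a joint edgeR fit of 8 libraries, added after the data were seen, and 49 of 81 tested members differed (45 larger and 4 smaller in the virus arm, with a median difference of 0.35 on the log2 scale, against 60% of all genes called, 30.9% larger and 29.1% smaller), so the share called, 60.5%, was near that of all genes. The experiments also differ in paired-end sequencing and depth, in the lentivirus, and in the 20 ng of human RNA added in the timecourse only. The kind of library, these treatments and the experiment cannot be told apart. Differences below are the log2 change in the virus arm minus that in the timecourse, each with its SE and 2 libraries per group.

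Cox6a2 differed by 7.06 ± 0.96 (edgeR adjusted p = 3e-07), with 18 and 7 reads in timecourse MEFs, 2 and 0 at day 2, 7 and 4 in empty-virus MEFs and 89 and 60 at day 2 there. With so few timecourse reads, the size depends on the prior count. Summed skeletal and cardiac muscle markers were 105 to 107 CPM in timecourse MEFs and 4.82 to 5.10 CPM at day 2. In the virus arm they were at 9.79 to 12.1 CPM and 16.4 to 17.8 CPM. There the mean of Acta1 went from 2.35 to 9.36 CPM and that of Tnnc1 from 1.57 to 3.04 CPM. Other listed genes fell, such as Tnnt2 (2.00 to 0.80 CPM), Myh3 (0.40 to 0.08 CPM) and Tnnt3 (0.40 to 0.06 CPM). The part of these markers was not tested. Cox6b2 differed by −1.38 ± 0.15 (edgeR adjusted p = 1.3e-07), with the higher starting level in the virus arm given above. Atp5g2 differed by 0.76 ± 0.08, and Ndufa2 by 0.78 ± 0.20, from 76.7 and 56.4 to 95.3 and 104 CPM in the virus arm against 87.8 and 82.2 to 71.9 and 75.7 CPM in the timecourse. Atp5sl differed by −0.40 ± 0.14 and Ndufv3 by −0.29 ± 0.10.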

How the results depend on the processing

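Counts of called members moved by over 1.5 times mainly where few were called. Larger counts moved that far too: that between the sorted fractions (26 called) and, with a library left out, that of the mid window (29 called). Without a filter on low counts, edgeR called 16 for the full window, 3 for the early window, 4 for the day 4 minus day 2 interaction and 4 for the inhibitor with Cdh1 virus. DESeq2 called 1 for the inhibitor in the CDH1-negative and 2 in the CDH1-positive fraction, and 8 between the fractions. limma on log2(TPM + 1) called 2 for the early window, 3 for the interaction, 6 in the negative fraction, 8 between fractions, and 0 for Cdh1 virus at day 2 and for the inhibitor with it. With 0.1 added instead, these were 2, 2, 6, 8, 0 and 0. RLE scaling kept all 18 counts within that factor.

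Leaving out each library in turn gave 43 to 56 called members for day 2 against MEF, 54 to 60 for day 4 against day 2, 59 to 68 for day 4 against MEF, 46 to 51 for day 2 with empty virus and 61 to 66 for ESCs. For the inhibitor the ranges were 1 to 3 at day 2, 4 to 10 in the full, 0 to 1 in the early and 10 to 25 in the mid window, 0 to 2 for the day interaction, 4 to 5 in the negative and 2 to 6 in the positive fraction, 0 to 0 for their interaction, 0 to 5 with empty and 0 to 3 with Cdh1 virus. Between fractions the range was 6 to 18, and for Cdh1 virus 0 to 2 in MEFs and 0 to 1 at day 2. Where 1 library is left in a group, its spread is assumed to be that of the other groups.

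Among the named genes, those that changed sign did so with TPM. They were Cox6b1 from MEF to day 4 (0.094 with either pseudocount) and Sdha with empty virus (−0.18 with both). In ESCs, with 1 and 0.1 added, they were Cox6b1 (−0.38 and −0.38), Cox7a2l (−0.19 and −0.20), Sdha (−0.13 and −0.13), Sdhb (−0.0098 and −0.0098) and Sdhc (−0.24 and −0.25). Members that are not named were not listed, and some of them also changed sign with TPM in these 2 comparisons, MEF to day 4 and ESCs. The cause was not tested. Same-numbered libraries did not deviate together (correlations −0.08 to 0.09 in the timecourse, −0.07 to 0.04 in the sort and −0.16 to 0.14 in the virus and ESC set). With the replicate block, 1 member was called in the early window and 0 for Cdh1 virus at day 2, and the other 16 counts stayed within 1.5 times. Depth limits Cox4i2, Cox6a2, Cox7a1, Cox7b2, Cox8b, Cox8c and Ndufa4l2 most.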
